A study of Homo sapiens with 12 samples.

Results

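The genes described here are the long intergenic noncoding RNAs with a LINC number that were expressed in at least 1 of the human uveal melanoma cell lines MP38 and 92.1. They were selected by measured level. A gene had to be listed as lncRNA, carry a LINC symbol, and reach a mean of 1 CPM (its count divided by the library's total and multiplied to a common scale) over the 6 libraries of at least 1 line. That left 254 genes of 1822 LINC genes, 14272 lncRNA features and 48283 features listed in all. Of the 254, 89 reached 1 CPM in both lines, 132 in MP38 only and 33 in 92.1 only. The level chose the genes, so a gene being present in 1 line is a description and not a tested result. Just inside the threshold in MP38 were LINC00893 at 1.004 and LINC02728 at 1.008 CPM, and just outside it LINC00645 at 0.999 and LINC01901 at 0.989 CPM. In 92.1, LINC00893 at 1.004 and LINC01786 at 1.014 CPM were inside, and LINC01424 at 0.991 and LINC00852 at 0.986 CPM were outside.

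LINC genes lie between protein-coding genes and are transcribed by RNA polymerase II into RNAs that are capped, often spliced and usually polyadenylated, but that code for no established protein. Many are restricted to a few cell types, some arise at enhancers or close to a coding gene's promoter, and a large share stay in the nucleus. The nuclear RNA exosome removes the unstable ones, and the Integrator complex ends many short noncoding transcripts. Some LINC RNAs serve as tumour markers: LINC00518 is read together with PRAME in a skin-patch test for melanoma.

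Uveal melanoma is a cancer of the pigment cells of the eye. Poly(A) RNA was sequenced from both lines at the end of a 72-hour exposure to solvent alone (DMSO) or to the ATR inhibitor VE-822, also called berzosertib. ATR is a kinase that protects stalled replication forks. The groups were MP38 in DMSO, MP38 in VE-822, 92.1 in DMSO and 92.1 in VE-822, with 3 libraries each; the DMSO cells are called untreated below. The dose, not given in the labels, was set in each line so that about 40% of cells stayed viable, so dose and line cannot be told apart. Each group is 1 established line, and whether its 3 libraries came from separate cultures is not stated. All p-values here are against the spread between libraries of a group, and that spread may be technical. In a lysate of many cells, fewer cells with an RNA and less RNA per cell cannot be told apart.

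Total counts were 54415628 to 63638976 per library in MP38 and 112374503 to 137664800 in 92.1, so depth moves with line and the pair cannot be told apart in any comparison of lines. Of 8 melanocyte markers, 8 reached 1 CPM in MP38 and 7 in 92.1, with summed levels of 4634 to 5594 and 18455 to 20462 CPM. The summed level of the leukocyte list was at most 1.24 CPM and of the epithelial list at most 0.934 CPM in any library. The endothelial list summed to 2.15 to 2.94 CPM in untreated MP38 and 2.92 to 3.86 CPM in VE-822, and to 0.0501 to 0.0970 and 0.356 to 0.653 CPM in 92.1. In MP38, VWF alone was at 2.01 to 2.76 CPM in DMSO and 2.72 to 3.55 CPM in VE-822. PECAM1, CDH5 and KDR were at most 0.213 CPM in any MP38 library. The fibroblast list summed to 0.440 to 0.835 CPM in untreated MP38 and 1.59 to 2.06 CPM in VE-822, and to 4.79 to 5.85 and 7.71 to 8.41 CPM in 92.1. In 92.1, COL1A1 was at 2.16 to 3.21 CPM in DMSO and 4.30 to 5.13 CPM in VE-822. PDGFRA was at 1.68 to 2.18 and 2.32 to 2.36 CPM there. LUM was at most 0.944 CPM, and COL3A1, DCN and THY1 at most 0.131 CPM, in any 92.1 library. The part of these cell types in the results was not tested. DMSO library 3 of 92.1 stood apart. Of 122 LINC RNAs of at least 1 CPM in 92.1, LINC00662, LINC01409 and LINC01531 were there more than 1.5 times as high as in every other library, and no LINC RNA was so in any other 92.1 library. Over all features of at least 1 CPM this held for 166 in DMSO library 3 and for at most 5 in another library. DMSO library 3 was the highest of the 6 for 41 of the 122 and VE-822 library 3 for 38, beside 20.1% and 23.2% of all features. Results of LINC RNAs in 92.1 are therefore given with and without that library where they rest on it.

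The promoter windows below are shown for the LINC RNAs that the results turn on and that RefSeq holds (GRCh38.p14, 250 bases before to 50 after a listed transcription start, 5′ to 3′ on the gene's strand). Capitals mark the motifs searched for. LINC00702 and LINC01531 had large increases in MP38, LINC02593 moved in opposite directions in the lines, LINC02367 had the largest decrease in 92.1, and LINC00511 was the most abundant LINC RNA by CPM in MP38. The windows are chr10:4243863-4244162 (minus strand), chr19:35405357-35405656 (plus), chr1:919643-919942 (minus), chr12:9367214-9367513 (plus) and chr17:72640423-72640722 (minus), in that order.
LINC00702: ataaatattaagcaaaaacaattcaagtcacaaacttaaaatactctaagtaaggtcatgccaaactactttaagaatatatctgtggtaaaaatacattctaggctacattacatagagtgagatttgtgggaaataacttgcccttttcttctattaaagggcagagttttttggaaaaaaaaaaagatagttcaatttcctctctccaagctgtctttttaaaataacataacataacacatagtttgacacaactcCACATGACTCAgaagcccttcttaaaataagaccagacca
LINC01531: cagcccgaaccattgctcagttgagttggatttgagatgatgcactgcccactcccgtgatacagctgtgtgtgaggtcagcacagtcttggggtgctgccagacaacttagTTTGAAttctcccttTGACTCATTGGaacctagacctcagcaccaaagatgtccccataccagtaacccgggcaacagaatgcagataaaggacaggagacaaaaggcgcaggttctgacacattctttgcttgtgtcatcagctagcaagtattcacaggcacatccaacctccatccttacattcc
LINC02593: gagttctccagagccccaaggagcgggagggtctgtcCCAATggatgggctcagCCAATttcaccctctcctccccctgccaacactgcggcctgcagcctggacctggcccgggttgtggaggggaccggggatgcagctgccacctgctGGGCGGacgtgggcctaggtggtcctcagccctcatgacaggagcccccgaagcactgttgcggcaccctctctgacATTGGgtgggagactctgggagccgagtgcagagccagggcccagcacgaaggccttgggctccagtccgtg
LINC02367: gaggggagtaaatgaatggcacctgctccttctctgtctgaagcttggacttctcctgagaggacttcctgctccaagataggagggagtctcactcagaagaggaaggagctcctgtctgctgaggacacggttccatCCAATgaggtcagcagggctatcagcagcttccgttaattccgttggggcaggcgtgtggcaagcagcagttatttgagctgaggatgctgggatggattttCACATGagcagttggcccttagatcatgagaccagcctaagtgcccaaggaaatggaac
LINC00511: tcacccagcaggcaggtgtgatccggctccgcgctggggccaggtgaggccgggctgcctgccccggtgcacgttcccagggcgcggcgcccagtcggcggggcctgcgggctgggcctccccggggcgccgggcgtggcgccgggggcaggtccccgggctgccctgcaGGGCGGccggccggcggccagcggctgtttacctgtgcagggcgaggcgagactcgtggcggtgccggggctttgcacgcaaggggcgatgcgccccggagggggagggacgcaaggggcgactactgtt

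In these windows LINC00702 holds TGACTCA, the letters bound by AP-1 factors, at position 15 counted from the start base as 1, overlapping CATGTG, read on the other strand, at position 11. LINC01531 holds TGACTCA 123 bases before its start, overlapping CCAAT, the NF-Y letters, on the other strand, with TTTGAA, part of the TCF/LEF site, 138 bases before the start. LINC02593 holds CCAAT 3 times and GGGCGG, an SP1 site, once. The LINC00511 window is 78.0% G and C with 35 CpG pairs, while that of LINC00702 is 31.3% G and C with no CpG pair.

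RefSeq windows were found for 152 of the 254 LINC genes, and both strands were searched for 8 motifs. TGACTCA occurred in 16 of the 152 windows (10.5%) and in 4.95% of all 35116 windows. The E-box letters CATGTG, which MITF can bind, occurred in 19.1% of LINC windows and 11.1% of all windows, and CACGTG in 9.87% and 7.26%. In the same order, the shares were 14.5% and 11.5% for TATAAA, 37.5% and 34.6% for CCAAT, 40.1% and 45.0% for GGGCGG, 12.5% and 15.2% for TTTGAA, and 6.58% and 6.63% for the p53 half-site. TGACTCA was in 7 of 42 windows of LINC RNAs higher in VE-822 in MP38, 3 of 39 lower and 5 of 50 not called. In 92.1 it was in 0 of 23 higher, 1 of 7 lower and 3 of 43 not called. Other motifs also differed by call. CACGTG in MP38 was in 6 of 42 higher, 0 of 39 lower and 6 of 50 not called. TATAAA in 92.1 was in 7 of 23 higher, 1 of 7 lower and 4 of 43 not called. These shares describe letters and were not tested.

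By the genome coordinates of the count tables, the LINC genes had a median exonic length of 3797.5 bp (196 to 33198) over a median span of 27868 bp. The median distance to the nearest protein-coding gene was 20257 bp. It was 5802 bp for the 89 present in both lines, 32353.5 bp for those of MP38 only and 42690 bp for those of 92.1 only. Although named intergenic, 37 of the 254 overlapped a listed coding gene and 168 overlapped another listed feature. Whether the counting used strand is not given in the sources used here, so values of overlapping genes are uncertain.

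The 254 genes summed to 2024 ± 12.6 CPM in untreated MP38 and 1189 ± 194 CPM in untreated 92.1 (SD, n = 3). The 89 present in both lines held 1398 CPM of this in MP38 and 1043 CPM in 92.1, and the 132 of MP38 only, chosen for their level there, held 618 and 22.7 CPM. The 254 genes took 0.201 to 0.203% of counts in untreated MP38 and 0.106, 0.109 and 0.141% in the 3 untreated 92.1 libraries, of which 0.141% was DMSO library 3. As a share of lncRNA counts they took 9.22 to 9.30% in MP38 and 5.58 to 6.06% in 92.1. The level was uneven over genes: the 10 highest held 41.9% of the summed level in untreated MP38 and 55.4% in untreated 92.1.

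Most LINC RNAs reached 1 CPM in a single line, and most coding genes did so in both. Of 254 LINC RNAs, 89 reached 1 CPM in both lines, against 262 of 422 antisense RNAs, 62 of 110 divergent RNAs that start beside a coding promoter, and 11352 of 13117 coding genes. Among clone-named lncRNAs it was 64 of 138 and among lncRNAs of other names 564 of 1311, so presence in 1 line was not shown to be particular to LINC RNAs. These counts describe the listed features and were not tested. The level in the other line was often close to nothing: 72 of the 132 MP38-only RNAs were under 0.1 CPM in untreated 92.1, and 17 of the 33 92.1-only RNAs in untreated MP38. In all 3 untreated libraries, 36 LINC RNAs had no count in 92.1 and 10 had none in MP38. A floor of 3 counts over a group's 3 libraries is 0.00843 CPM in 92.1 and 0.0160 CPM in MP38, for counting error only.

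LINC02160 (chr5:33229516-33284642) was the most abundant RNA of 92.1 only. It was at 43.5, 43.2 and 44.0 CPM in untreated 92.1 and had no count in untreated MP38, at least 2722-fold higher in 92.1. In VE-822 it was at 40.4, 38.7 and 53 CPM in 92.1 and at 0 to 0.0657 CPM in MP38. It was thus at or near 0 in MP38 in either treatment.

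The converse held for a larger group in MP38. LINC01239 (chr9:22646200-22824213) was at 50.5, 51.8 and 45.4 CPM in untreated MP38 and at 0.00890, 0 and 0.0162 CPM in untreated 92.1. LINC00941 was at 30.3, 30.4 and 28.4 CPM in untreated MP38 and at 0, 0.00835 and 0.00808 CPM in untreated 92.1. LINC00668 and LINC02864, at means of 13 and 12.9 CPM in untreated MP38, had no count in untreated 92.1 and were at least 1538-fold and 1524-fold higher in MP38. No value of these 4 RNAs in untreated 92.1 came near any in untreated MP38. All 4 reached 1 CPM in MP38 only, so this gap was set in part by the selection.

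**Figure D1:**
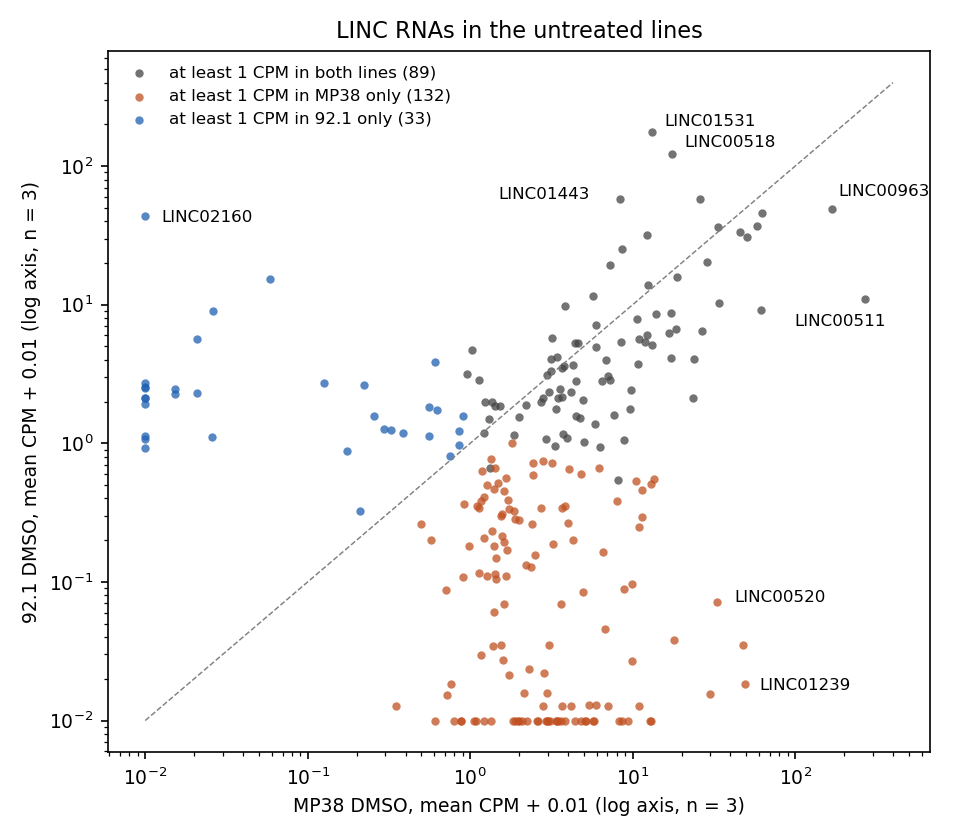
Mean CPM of the 254 LINC RNAs over 3 untreated libraries of MP38 (x axis) and of 92.1 (y axis), each with 0.01 added and on a log axis; the dashed line marks equal levels. Of the 132 RNAs of MP38 only, 72 were under 0.1 CPM in untreated 92.1 and lie towards the bottom. Of the 33 of 92.1 only, 17 were under 0.1 CPM in untreated MP38 and lie towards the left. The others of both sets lie further from these edges. LINC00511 and LINC01531 lie far to either side of the line among the 89 present in both.

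Among the 89 LINC RNAs present in both lines, 46 were lower and 25 higher in untreated 92.1 than in untreated MP38 by edgeR's quasi-likelihood test, and 18 did not pass an adjusted p of 0.05. Their median log2 difference, 92.1 minus MP38, was -0.45. Of all 12928 features of at least 1 CPM in both lines, 47.1% were higher and 36.3% lower in 92.1, with a median of 0.13. The difference was called and at least 1 on the log2 scale in 13 of the 89 LINC RNAs and -1 or less in 29. Over all 12928 features these counts were 2498 and 1922. They were 31 and 82 of 262 antisense RNAs and 1 and 21 of 62 divergent RNAs. Antisense RNAs (136 lower and 70 higher of 262) and divergent RNAs (39 and 8 of 62) also leaned lower, so this was not shown to be particular to LINC RNAs.

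LINC00511 (chr17:72290091-72640472), a spliced RNA described in several cancers, was the most abundant LINC RNA of MP38 by CPM. It was at 272, 273 and 267 CPM in untreated MP38 and at 11.4, 11.6 and 9.95 CPM in untreated 92.1, a log2 difference of -4.42 ± 0.0738 (SE; edgeR adjusted p = 1.35e-10). LINC00963 followed it in MP38, at 171, 171 and 167 CPM, against 44.0, 44.3 and 59.5 CPM in untreated 92.1 (-1.58 ± 0.109). Both were separated by line in every library, and per exonic length LINC00963 was also among the highest in MP38.

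LINC01844, LINC02199 and LINC00960 were also lower in 92.1, by log2 differences of -3.71 ± 0.114, -3.27 ± 0.0892 and -2.87 ± 0.103 (SE). LINC02199, for example, was at 23.6, 23.2 and 23.8 CPM in untreated MP38 and 2.06, 1.93 and 2.36 CPM in untreated 92.1. LINC00622 was lower by -2.56 ± 0.146 on that scale. None of these 4 had an untreated 92.1 library at or above any untreated MP38 library. They were named as extremes between the untreated lines, so such a gap was set in part by that choice. The same holds for LINC00511 and LINC01531.

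Among the 89 present in both lines, the largest difference the other way was in LINC01531 (chr19:35399511-35419385). It was at 11.6, 11.7 and 15.9 CPM in untreated MP38 and at 134, 145 and 247 CPM in untreated 92.1, where 247 CPM was DMSO library 3. The log2 difference was 3.95 ± 0.251 (SE; edgeR adjusted p = 5.69e-07), and 3.65 without that library. The groups did not overlap with or without it.

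LINC00518 (chr6:10429255-10435015), the melanoma marker, lies 9596 bp from TFAP2A, a transcription factor of neural crest and pigment cells. It was at 15.7, 17.5 and 19.3 CPM in untreated MP38 and 107, 109 and 154 CPM in untreated 92.1, a log2 difference of 3.02 ± 0.151 (2.85 without DMSO library 3). TFAP2A itself had a mean of 53.7 ± 4.14 CPM in untreated MP38 and 473 ± 24.6 CPM in untreated 92.1 (SD, n = 3). Both genes of the locus were higher in 92.1 by level.

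The overlapping pair LINC01443 and LINC01444 on chromosome 18, on opposite strands, was higher in 92.1 by 3.01 ± 0.0818 and 2.40 ± 0.173 (log2, SE). LINC01443 was at 7.43, 8.71 and 8.77 CPM in untreated MP38 and 55.1, 57.4 and 61.3 CPM in untreated 92.1. LINC01176 was higher by 1.93 ± 0.280 (log2, SE).

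VE-822 changed many LINC RNAs of MP38 in both directions, and the largest changes were increases. Of 221 LINC RNAs of at least 1 CPM in MP38, 72 were higher, 65 lower (32.6% and 29.4%), and 84 did not pass the threshold (edgeR). The median log2 fold change was -0.01. Over all 15036 features of at least 1 CPM tested in MP38, 32.8% were higher and 31.9% lower, with a median of 0.00, so the counts of LINC RNAs were near the background. A called log2 fold change of at least 1 was measured in 27 of the 221 and -1 or less in 7, against 399 and 201 of all 15036 features. Of the 221, 14 had an untreated mean under 1 CPM and so were selected through VE-822, and 13 of these were called higher. The libraries of DMSO and VE-822 did not overlap for 74 LINC RNAs that were higher and 77 that were lower, beside 30.8% and 38.1% of all features.

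Of the 27 LINC RNAs with a log2 fold change of at least 1 in MP38, 11 had an untreated mean under 1 CPM and so were selected through VE-822. LINC00973, which was not among these 11 and is described in other cancer cells as rising after cytotoxic drugs, was at 1.52, 1.87 and 1.34 CPM in DMSO and 18, 16.8 and 17.9 CPM in VE-822. Its log2 fold change was 3.52 ± 0.0940 (SE; edgeR adjusted p = 7.17e-17). In 92.1 it stayed under 0.24 CPM in all 6 libraries, at 0.0356, 0.00835 and 0.00808 CPM in DMSO and 0.145, 0.118 and 0.238 CPM in VE-822. The groups did not overlap in either line, which in MP38 was a condition for naming it, and the level in 92.1 was below the 1 CPM threshold.

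LINC00702 (chr10:4201141-4243912) was at 0.845, 1.38 and 1.15 CPM in DMSO and 11.9, 12.1 and 12.5 CPM in VE-822 in MP38. Its log2 fold change was 3.47 ± 0.112 (SE; edgeR adjusted p = 9.17e-16). In 92.1 it was at 0.303, 0.251 and 0.437 CPM in DMSO and 0.843, 0.749 and 0.953 CPM in VE-822. The nearest coding gene by coordinates, 415860 bp away, is KLF6, a zinc-finger transcription factor, which rose in MP38 from 131 ± 2.33 to 286 ± 3.37 CPM (SD, n = 3) and fell in 92.1 from 213 ± 2.84 to 196 ± 0.983 CPM.

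LINC01531 rose in MP38 from 11.6, 11.7 and 15.9 to 64.9, 63.9 and 56.6 CPM, a log2 fold change of 2.28 ± 0.0781 (SE; edgeR adjusted p = 2.08e-15). In 92.1 it was at 134, 145 and 247 CPM in DMSO and 132, 145 and 156 CPM in VE-822 (-0.35 ± 0.203, adjusted p = 0.204). Without DMSO library 3 the change in 92.1 was -0.05 (adjusted p = 0.390). After VE-822 the level in MP38 was still below every 92.1 library.

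LINC02412 rose in MP38 from 0.829, 1.10 and 0.974 to 6.58, 6.70 and 6.09 CPM (2.78 ± 0.122 on the log2 scale, SE). LINC02099 and LINC00589 are neighbours 200 bp apart on opposite strands of chromosome 8, and they rose by 2.85 ± 0.215 and 2.47 ± 0.162. LINC00488 and LINC00393 rose by 2.29 ± 0.168 and 2.13 ± 0.200. All 5 had an untreated mean under 1 CPM and entered the 221 through their VE-822 libraries, so a rise was set in part by the selection.

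LINC00520 (chr14:55781132-55796731) and LINC00518 were already abundant in untreated MP38 and rose further. LINC00520 went from 33.1, 33.5 and 32.8 to 79.7, 76.8 and 70.01 CPM, a log2 fold change of 1.23 ± 0.0429 (SE; edgeR adjusted p = 2.63e-15). LINC00518 went from 15.7, 17.5 and 19.3 to 43.6, 41.5 and 42.9 CPM (1.32 ± 0.0588, adjusted p = 1.19e-13). In both, the lowest VE-822 library was above 2 times the highest untreated one.

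The decreases in MP38 were smaller. LINC01963 (chr2:216217045-216220192), 10742 bp from the DNA end-joining gene XRCC5, fell from 10.6, 10.3 and 11 to 4.02, 4.84 and 4.35 CPM, a log2 fold change of -1.23 ± 0.0807 (SE; edgeR adjusted p = 5.93e-11). LINC00304, inside the listed span of ACSF3, changed by -1.40 ± 0.153 (in 92.1, under 1 CPM, by 1.06 ± 0.225), and LINC01411 and LINC01182 by -1.26 ± 0.124 and -1.23 ± 0.164. LINC02885, LINC01770 and LINC01238 changed by -1.05 ± 0.148, -1.01 ± 0.0981 and -1.01 ± 0.0845. In these 7 the groups did not overlap, which was a condition for naming them. For 1 of the 7 the VE-822 mean was under 1 CPM, so it was selected through DMSO. Of the 221 LINC RNAs of at least 1 CPM in MP38, 12 had a VE-822 mean under 1 CPM, and 6 of these 12 were called lower.

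Among abundant LINC RNAs of MP38, LINC00941 fell from 30.3, 30.4 and 28.4 to 20.9, 22.1 and 19.0 CPM (-0.49 ± 0.0518). LINC00665 fell from 26.1, 25.8 and 25.5 to 16.3, 16.6 and 16.7 CPM (-0.61 ± 0.0492). The most abundant RNA, LINC00511, was at 245, 249 and 270 CPM in VE-822 and did not pass the threshold (-0.05 ± 0.0444, edgeR adjusted p = 0.412); without VE-822 library 3 it did (-0.11, adjusted p = 0.00770). LINC00963 was at 171, 174 and 176 CPM, beside 171, 171 and 167 CPM in DMSO (0.07 ± 0.0372, adjusted p = 0.115).

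**Figure D2:**
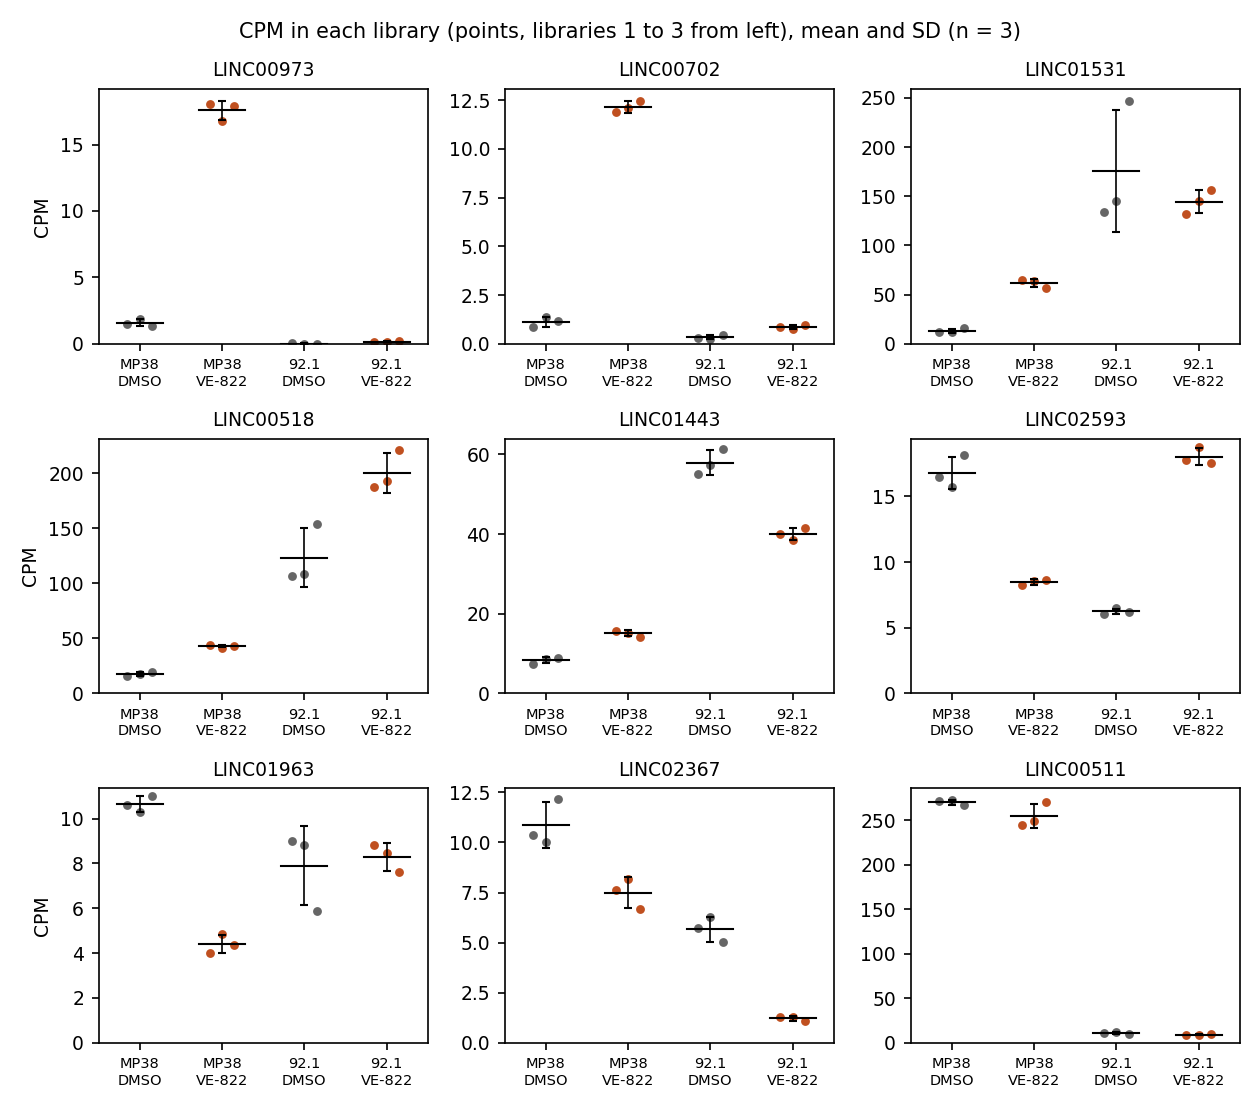
CPM of 9 LINC RNAs in each of the 12 libraries (points, y axes start at 0), with the mean (line) and SD (bars) over 3 libraries for each line and treatment. LINC00973 and LINC00702 rise from under 2 CPM in MP38, LINC02593 and LINC01443 move in opposite directions in the lines, and DMSO library 3 of 92.1 is the highest point for LINC01531.

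In 92.1 the LINC RNAs that passed the threshold were mostly higher in VE-822. Of 122 of at least 1 CPM there, 33 were higher, 8 lower (27.0% and 6.56%), and 81 did not pass the threshold (edgeR), with a median log2 fold change of 0.12. Over all 14252 features of at least 1 CPM tested in 92.1, 19.6% were higher and 29% lower, with a median of -0.05. Without DMSO library 3 the counts were 56 higher and 18 lower. The shares of all features above are from the fit with that library. Those of the fit without it are not given here, so the 56 and 18 have no background beside them. The libraries of the treatments did not overlap for 48 LINC RNAs that were higher and 11 that were lower, beside 33.4% and 28.1% of all features.

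Most other noncoding classes of 92.1 leaned the same way, so this was not shown to be particular to LINC RNAs. Of antisense RNAs, 96 of 305 were higher and 30 lower, and of divergent RNAs 18 of 73 were higher and 2 lower. Host genes of small RNAs were the exception, with 6 of 41 higher and 10 lower. Of 12129 coding genes, 2300 were higher and 3898 lower. In MP38, by contrast, 76 of 379 antisense RNAs were higher and 120 lower. The share of counts in lncRNA features was 1.83, 1.95 and 2.33% in the untreated 92.1 libraries, the last being DMSO library 3, and 2.80 to 2.84% in VE-822. In MP38 it was 2.17 to 2.21% and 2.02 to 2.12%. The 254 LINC genes' share of the lncRNA counts went the other way: from 5.58 to 6.06% down to 4.55 to 4.89% in 92.1, and from 9.22 to 9.30% up to 10.2 to 10.7% in MP38.

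Other measures of library content moved with VE-822. The mitochondrial share of counts was 6.82 to 7.26% in untreated MP38 and 8.50 to 8.70% in VE-822, and 9.11 to 9.32% and 10.3 to 10.5% in 92.1. The ribosomal RNA share was 0.949 to 0.971% and 1.24 to 1.32% in MP38, and 1.52 to 1.696% and 1.59 to 1.64% in 92.1, where the ranges overlap. The part of these in the LINC results was not tested.

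**Figure D3:**
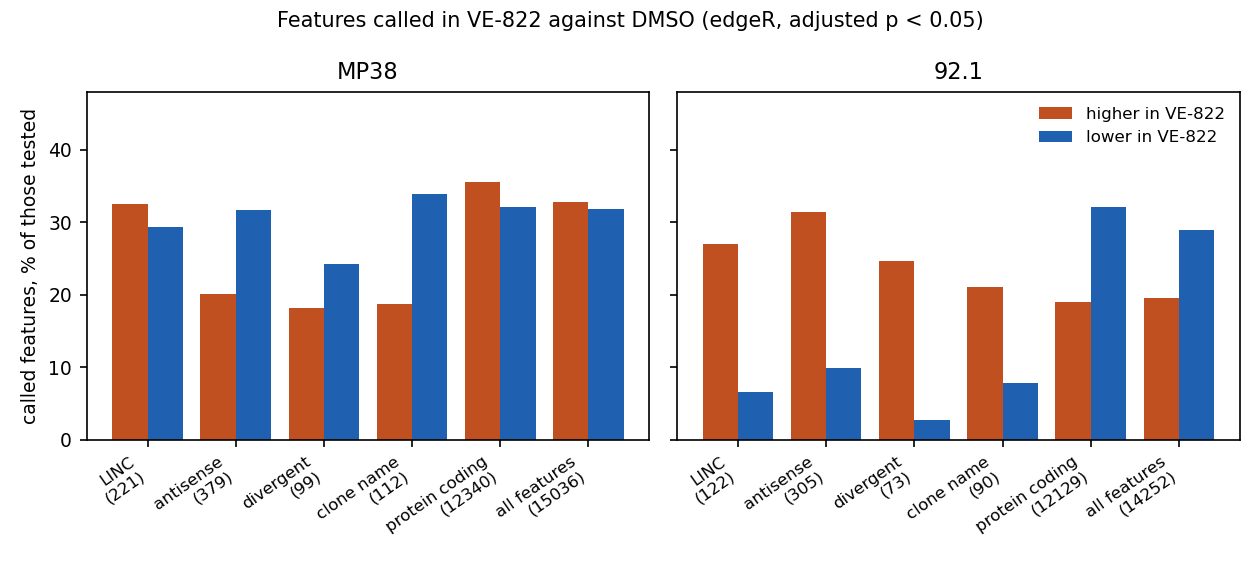
Share of features of at least 1 CPM that were called higher (orange) or lower (blue) in VE-822 than in DMSO, by class, in MP38 (left) and 92.1 (right), with the number tested in parentheses; bars start at 0. In 92.1, 33 of 122 LINC RNAs were higher and 8 lower, while more coding genes were lower than higher.

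LINC02614 (chr3:125827238-125916384) was among the strongest increases in 92.1, from 1.07, 1.17 and 1.24 CPM in DMSO to 3.15, 4.44 and 4.41 CPM in VE-822. Its log2 fold change was 1.71 ± 0.156 (SE; edgeR adjusted p = 5.82e-05). LINC00664, at 0.267, 0.276 and 0.404 CPM in DMSO, was at 1.54, 1.75 and 2.09 CPM in VE-822 (2.42 ± 0.203). In both RNAs the groups did not overlap, which was a condition for naming them. Of the 122, 9 had an untreated mean under 1 CPM, LINC00664 among them, and 7 of these 9 were called higher. LINC00664 overlaps the zinc-finger gene ZNF429, which was also higher (0.27).

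LINC02615 rose from 3.83, 4.03 and 4.35 to 7.87, 8.74 and 9.31 CPM (1.01 ± 0.0873, SE). LINC01569 rose by 1.49 ± 0.214, LINC02482 by 1.14 ± 0.173 and LINC00663 by 1.00 ± 0.271. The call of LINC00663 was lost when DMSO library 1, DMSO library 2 or VE-822 library 1 was left out (edgeR adjusted p = 0.0666, 0.0547 and 0.0746). DMSO library 3 held the highest untreated value of LINC01569, 1.55 CPM beside 0.845 and 0.843 CPM, and without it the rise was 1.83.

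LINC02367 (chr12:9347056-9400387) had the largest decrease in 92.1. It fell from 5.72, 6.27 and 5.03 to 1.26, 1.29 and 1.09 CPM, a log2 fold change of -2.29 ± 0.122 (SE; edgeR adjusted p = 2.64e-06). In MP38 it fell from 10.4, 10.03 and 12.2 to 7.63, 8.18 and 6.65 CPM (-0.50 ± 0.0833). The groups did not overlap in either line, which in 92.1 was a condition for naming it.

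LINC01572 fell in 92.1 from 2.20, 2.30 and 2.92 to 0.799, 0.632 and 0.714 CPM (-1.86 ± 0.165, SE), and in MP38 it did not pass the threshold (0.03 ± 0.125). It was under 1 CPM in every VE-822 library of 92.1 and so was selected there through DMSO. A fall was thus set in part by the selection. Of the 122, 2 had a VE-822 mean under 1 CPM, and 1 of these was called lower. LINC00511 and LINC01355 fell in 92.1 by less, -0.38 ± 0.0795 and -0.37 ± 0.0880. LINC01238 and LINC02199 passed at -0.51 ± 0.167 and -0.44 ± 0.122. The call of LINC01238 was lost without DMSO library 1 or any 1 of the VE-822 libraries (adjusted p up to 0.119), and that of LINC02199 without VE-822 library 1 or 3 (0.0596 and 0.0699).

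The direction of LINC00662 in 92.1 rested on DMSO library 3. It was at 27.5, 27.6 and 82.1 CPM in untreated 92.1 and 31.2, 31.9 and 31.6 CPM in VE-822, a log2 fold change of -0.61 ± 0.378 (SE; edgeR adjusted p = 0.237). Without DMSO library 3 it was 0.10 (adjusted p = 0.0321). The change of LINC01293 went from -0.11 to 0.11 and that of LINC01963 from 0.00 to -0.20 when that library was left out, and both then passed the threshold. The sign of these 3 changes thus rested on 1 library.

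The question whether the lines respond alike was put to the 89 LINC RNAs present in both. By the test of the difference in edgeR, 92.1 response minus MP38 response, 29 were higher, 17 lower, and 43 did not pass, with a median of 0.26. Over all 12928 features, 25.9% were higher and 32.1% lower, with a median of -0.03. Of coding genes, 2816 were higher and 3952 lower of 11352. Antisense RNAs (95 higher and 28 lower of 262), divergent RNAs (21 and 1 of 62) and clone-named lncRNAs (21 and 6 of 64) leaned higher too. The lean was thus not shown to be particular to LINC RNAs. In the fits of each line alone, 7 LINC RNAs were higher in both lines, 3 were lower in both, 11 were called in opposite directions and 29 were called in neither. Opposite calls and calls in neither line were not counted over all features. The 11 and 29 are therefore description only and were not shown to be particular to LINC RNAs. The 7 shared increases were 30.4% of the 23 increases in each line, where all features shared 17.3% of the increases of MP38 and 31.7% of those of 92.1. The 3 shared decreases were 11.1% of 27 in MP38 and 37.5% of 8 in 92.1, where all features shared 27.7% and 29.6%.

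LINC02593 (chr1:916865-921016) had the largest difference of response among these 89. In MP38 it fell from 16.5, 15.7 and 18.2 to 8.23, 8.54 and 8.64 CPM (-0.95 ± 0.0677, SE), and in 92.1 it rose from 6.06, 6.47 and 6.16 to 17.8, 18.8 and 17.6 CPM (1.46 ± 0.0660). The difference of the responses was 2.44 ± 0.0989 (edgeR adjusted p = 2.81e-11). In VE-822 92.1 thus held more of it than MP38, the reverse of the untreated order. SAMD11, the coding gene 2907 bp away, moved the same way in each line, from 8.22 ± 0.835 to 5.31 ± 0.0492 CPM in MP38 and from 2.59 ± 0.971 to 11.3 ± 0.592 CPM in 92.1 (SD, n = 3).

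LINC01443 and LINC01444 went the other way, higher in MP38 and lower in 92.1. LINC01443 rose in MP38 from 7.43, 8.71 and 8.77 to 15.7, 15.2 and 14.2 CPM (0.89 ± 0.0678) and fell in 92.1 from 55.1, 57.4 and 61.3 to 40.0, 38.5 and 41.5 CPM (-0.60 ± 0.0577, SE). LINC01444 changed by 1.39 ± 0.169 and -0.65 ± 0.138. The 1468 bp of LINC01444 lie inside the span of LINC01443, so without strand their reads cannot be told apart where exons coincide. The nearest coding gene, ANKRD30B, rose in MP38 from 2.65 ± 0.274 to 12.1 ± 0.499 CPM and fell in 92.1 from 3.10 ± 0.0707 to 2.19 ± 0.472 CPM.

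LINC01844 rose in 92.1 from 0.561, 0.476 and 0.558 to 1.68, 1.56 and 1.76 CPM (1.58 ± 0.142, SE), and the difference of its responses was 1.79 ± 0.150. It was under 1 CPM in every untreated 92.1 library and so was selected there through VE-822. A rise in 92.1 was thus set in part by the selection. In MP38 it was at 8.29, 8.17 and 7.70 CPM in DMSO and 7.66, 6.44 and 6.60 in VE-822. That fit called it lower at an edgeR adjusted p of 0.0495 (-0.19 ± 0.0783). The call was lost without DMSO library 1 or 2 or VE-822 library 2 or 3 (adjusted p of 0.102 to 0.223).

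LINC00893 fell in MP38 from 1.15, 1.34 and 1.46 to 0.717, 0.575 and 0.781 CPM (-0.90 ± 0.205, SE) and rose in 92.1 from 0.525, 0.643 and 0.808 to 1.30, 1.42 and 1.33 CPM (0.96 ± 0.170). Its mean was 1.004 CPM in both lines, so it was selected through DMSO in MP38 and through VE-822 in 92.1. It overlaps AF011889.5, a listed coding gene that moved the same way, at -1.19 ± 0.235 and 1.37 ± 0.210. LINC00342, LINC00894 and LINC01521 were also lower in MP38 and higher in 92.1. So were LINC00205 and LINC00839, whose calls in 92.1 were lost in 3 and 2 of the fits that leave out 1 library, with adjusted p of 0.0554 to 0.0668. The call of LINC00205 in MP38 was also lost, without DMSO library 2 or VE-822 library 2 (edgeR adjusted p = 0.0810 and 0.0874).

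The 7 LINC RNAs higher in both lines were LINC00472, LINC00482, LINC00518, LINC00622, LINC00910, LINC01703 and LINC02604. The MP38 call of LINC00622 was lost without VE-822 library 2 (0.22, edgeR adjusted p = 0.0515). LINC00518 rose in 92.1 from 107, 109 and 154 to 187, 192 and 221 CPM (0.63 ± 0.135, SE), and by 0.80 without DMSO library 3. LINC00472, a candidate tumour suppressor in breast cancer, rose in MP38 from 3.32, 3.49 and 4.13 to 5.51, 5.81 and 5.09 CPM (0.62 ± 0.1002) and in 92.1 from 3.22, 3.54 and 3.61 to 6.85, 6.70 and 6.04 CPM (0.85 ± 0.0933). The difference between its responses did not pass the threshold (0.26 ± 0.140, edgeR adjusted p = 0.163), and the groups did not overlap in either line.

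Other RNAs changed past the threshold in 1 line with a tested difference of response. LINC01291 and LINC01293, 1840 bp apart on chromosome 2 next to POLE4, which encodes a subunit of a replicative DNA polymerase, rose in MP38 by 1.32 ± 0.0628 and 1.14 ± 0.0545. LINC01293 went from 12.3, 11.4 and 12.9 to 26.5, 26.6 and 25.5 CPM. POLE4 was higher in MP38 too, by 0.74. The difference of response was -1.39 ± 0.163 for LINC01291 and -1.22 ± 0.182 for LINC01293. LINC00920 had the opposite pattern, rising in 92.1 from 5.49, 5.76 and 7.95 to 10.3, 10.5 and 10.5 CPM (0.63 ± 0.131), with 26.0, 24.9 and 29.5 CPM in DMSO and 24.9, 23.4 and 24.5 CPM in VE-822 in MP38.

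**Figure D4:**
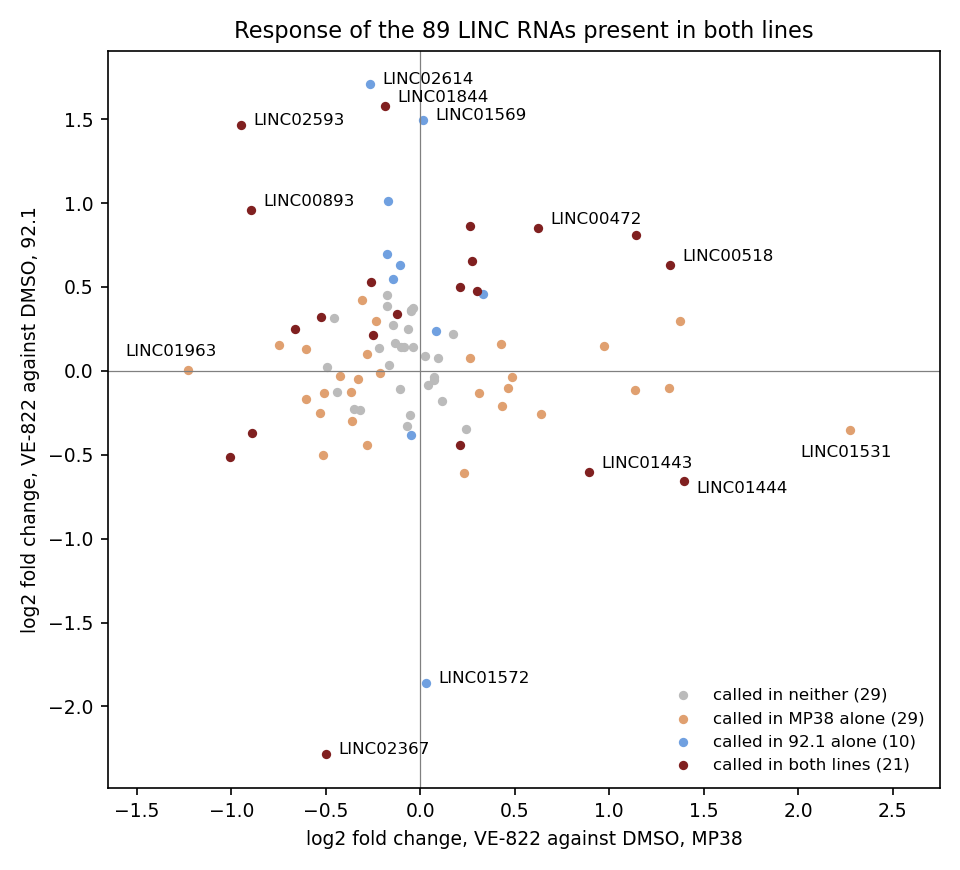
Log2 fold change of VE-822 against DMSO in MP38 (x axis) and 92.1 (y axis) for the 89 LINC RNAs of at least 1 CPM in both lines, coloured by the lines in which each was called by edgeR. LINC02593 lies at -0.95 and 1.46, LINC01443 at 0.89 and -0.60, and LINC02367 is the lowest point in 92.1 at -2.29.

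The calls of the nearest coding genes were counted beside those of the LINC RNAs. Leaving out LINC RNAs that overlap a coding gene, the neighbour of 53 LINC RNAs that were higher in MP38 was itself higher in 29, lower in 11 and not past the threshold in 13. For 44 that were lower, the neighbour was higher in 12 and lower in 22, and for 55 that were not called, higher in 20 and lower in 22. Of all coding genes of at least 1 CPM in MP38, 35.5% were higher and 32.1% lower. In 92.1, the neighbour of 25 LINC RNAs that were higher was higher in 4, lower in 7 and not past the threshold in 14. For 7 that were lower there, it was higher in 1 and lower in 4, and for 52 that were not called, higher in 9 and lower in 19. Of coding genes of at least 1 CPM in 92.1, 19.0% were higher and 32.1% lower. These counts were not tested, and some neighbours serve more than 1 LINC RNA.

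**Figure D5:**
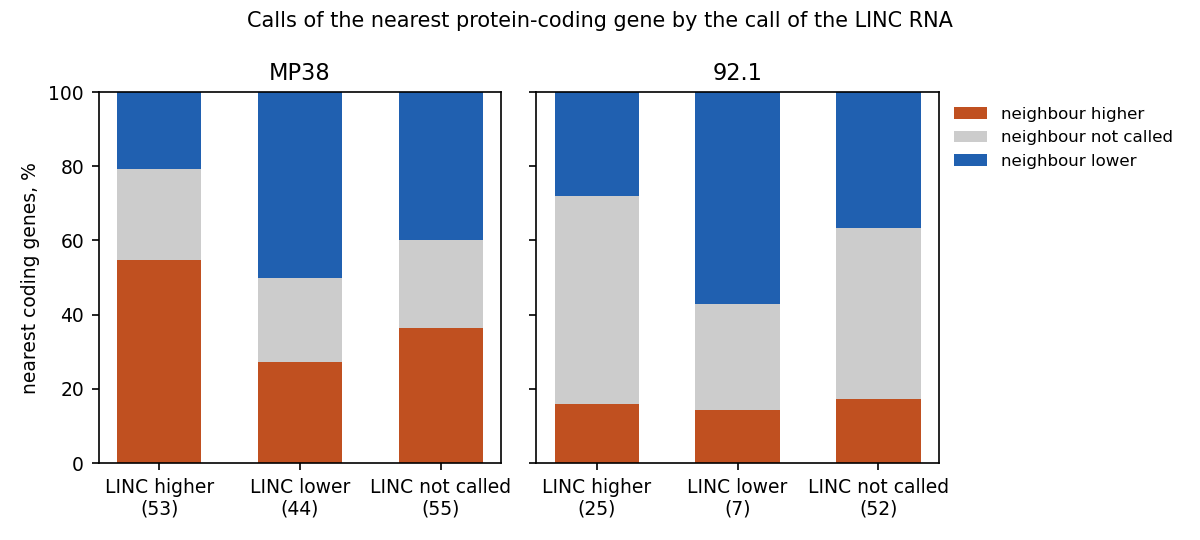
Share of nearest protein-coding genes that were called higher, lower or not called in VE-822, by the call of the LINC RNA beside them, for LINC RNAs that overlap no coding gene (number in parentheses), in MP38 (left) and 92.1 (right). In MP38, 29 of 53 neighbours of higher LINC RNAs were higher and 22 of 44 neighbours of lower ones were lower.

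Of 11 neighbouring pairs of LINC genes within 50 kb of each other, 6 of them overlapping, 9 had changes of the same sign in MP38. The sign was counted whether or not a change was called, and in MP38 only. LINC01128 and LINC02207 recur across pairs, so the pairs are not independent. Without strand, reads of overlapping pairs cannot be told apart where exons coincide. The count was not set beside that of other neighbouring genes and was not tested. LINC01237 and LINC01238 changed by -0.91 and -1.01, LINC01116 and LINC01117 by -0.28 and -0.37, and LINC01128 and LINC01409 by -0.21 and -0.53. LINC02207 and LINC01579, which overlap on opposite strands, had opposite signs, at -0.22 and 0.52.

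Of 25 LINC genes listed for a described product or clinical use, 16 were among the 254. All 16 were at 1 CPM in MP38, where 6 were higher, 4 lower and 6 without a call; 12 were at 1 CPM in 92.1, where 3 were higher and 1 lower. In MP38 these counts were near the 32.8% and 31.9% of all features. In 92.1, 19.6% of all features were higher and 29% lower. LINC00467, which encodes a small mitochondrial protein, rose in MP38 from 5.61, 6.04 and 5.50 to 6.96, 7.21 and 8.27 CPM (0.43 ± 0.0880). LINC00632, from which the circular RNA CDR1as is made, rose in MP38 from 13.1, 13.3 and 12.7 to 18.7, 16.8 and 17.2 CPM (0.46 ± 0.0564). In 92.1 neither passed the threshold (0.16 ± 0.140 and -0.10 ± 0.196); without DMSO library 3 LINC00467 did, at 0.34.

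The machinery that ends and degrades such RNAs was read from a list of 40 genes of the nuclear exosome, its adaptors, Integrator and 3′ end processing. In MP38, 9 were higher, 15 lower and 16 without a call, with a median log2 fold change of -0.01, beside 35.5% higher and 32.1% lower of coding genes of at least 1 CPM. In 92.1, 1 was higher, 21 lower and 18 without a call, with a median of -0.19, beside 19.0% and 32.1% of coding genes. The exosome core subunits EXOSC8 and EXOSC9 changed in 92.1 by -1.48 ± 0.203 and -0.95 ± 0.0644. ZCCHC8, a scaffold of the nuclear exosome targeting complex, changed there by -0.80 ± 0.152, and the Integrator subunit INTS7 by -0.72 ± 0.0585. The DMSO spread was wide for EXOSC8, at 62.7 ± 21.9 CPM in DMSO and 23.6 ± 0.374 CPM in VE-822 (SD, n = 3). ZCCHC8 was at 47.4 ± 12.3 and 28.6 ± 0.192 CPM. Whether the changes of EXOSC8 and ZCCHC8 rest on DMSO library 3 is not shown here. In MP38, EXOSC8 and ZCCHC8 were higher, by 0.50 and 0.39. The 1 gene higher in 92.1 was NCBP2, a cap-binding subunit, at 0.21. The part of these genes in the LINC RNA levels was not tested.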

How the data were processed

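Poly(A) RNA from 12 libraries was used, 3 for each line and treatment. The authors deposited raw counts per gene, 1 table for each line, made with cutadapt 4.8, STAR 2.7.11a and featureCounts 2.0.6 on GRCh38.p13, per the submitters' processing notes; the settings are not given in the sources used here. The deposited FPKM values, checked against the counts, are the same counts per exonic length and library total.

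Levels are CPM, count over library total. Differences were tested on the counts with edgeR 4.0.16 in R 4.3.3 (quasi-likelihood, filterByExpr at its defaults, TMM), in each line alone. The difference of responses was tested in 1 fit of all 12 libraries, over features in both tables. The untreated lines were tested over the same features in a fit of the DMSO libraries alone. Calls are at an adjusted p under 0.05 (Benjamini-Hochberg, all features of the fit). SE is the log2 fold change over the root of its F statistic. Members are counted where they reached 1 CPM in the tables compared, since a lower gene enters a fit only through the group where it is higher. The fits were tested on simulated data.

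The members and gene lists were chosen with earlier results of these data known. Named RNAs are the 8 largest called changes each way in a line, from RNAs of at least 1 CPM there whose groups did not overlap. Named too are the 6 extremes of the difference of responses and the 5 each way between untreated lines. So are the 8 highest by FPKM in each line and described LINC genes. Others named (shared or opposite calls, neighbouring pairs, RNAs at 0 in 1 line or high in DMSO library 3) were chosen after their values were seen. Alternatives were limma 3.58.1 on log2(FPKM + 1), DESeq2 1.42.0, other scalings and filters, a replicate block and leaving out each library. Same-numbered libraries correlated by -0.02 to 0.08, so the numbers were not taken as pairs.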

Additional observations from a re-analysis of the deposited data

Results flagged for a closer look

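Among the 89 LINC RNAs of at least 1 CPM in both lines, these 12 had the 6 highest and 6 lowest values called by the test of the difference itself (edgeR, 92.1 response minus MP38 response, adjusted p under 0.05). On the log2 scale the response was higher in 92.1 by 2.44 for LINC02593, 2.00 for LINC02614, 1.88 for LINC00893, 1.79 for LINC01844, 1.51 for LINC01569 and 1.26 for LINC01963. It was lower in 92.1, with differences of -2.60 for LINC01531, -2.02 for LINC01444, -1.86 for LINC01572, -1.76 for LINC02367, -1.47 for LINC01443 and -1.39 for LINC01291. Of these, LINC02593, LINC00893 and LINC01844 were called lower in MP38 and higher in 92.1, and LINC01443 and LINC01444 the reverse; the MP38 call of LINC01844 kept its side in 4 of 13 other settings. LINC01844 and LINC00893 reached 1 CPM in 92.1 through VE-822, LINC01572 there through DMSO, and LINC00893 in MP38 through DMSO. Their directions there were set in part by the selection. The dose of VE-822 was set for each line, so dose and line cannot be told apart in any of the 12.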

How the results depend on the processing

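The numbers of calls below are given as higher and lower among LINC RNAs. With a minimum of 5 CPM they were 31 and 32 of 83 in MP38, 11 and 3 of 39 in 92.1, 11 lower of 43 for the difference of responses, and 10 and 28 of 43 between untreated lines, where fewer genes enter. With limma on log2(FPKM + 1) they were 46 and 37 in MP38, and 3 were lower in 92.1; LINC00467, LINC00472, LINC00622, LINC00632, LINC00662 and LINC01844 in MP38 and LINC00511, LINC00663, LINC01238, LINC01355, LINC01444 and LINC02199 in 92.1 lost their calls (adjusted p = 0.0508 to 0.296). DESeq2 called 36 and 15 in 92.1. With all members tested, an alternative chosen after seeing the data, 64 of 196 were higher in 92.1 and 72 of 241 in the difference; members that pass only through the higher group enter there. Leaving out 1 library gave 67 to 71 and 55 to 60 in MP38, 23 to 56 and 6 to 18 in 92.1, 22 to 41 and 16 to 19 for the difference, and 23 to 27 and 45 to 56 between untreated lines; the 56 and 18 in 92.1 were without DMSO library 3. Over these fits the 92.1 change ran from -0.89 to 0.10 for LINC00662, -0.24 to 0.11 for LINC01293 and -0.20 to 0.083 for LINC01963, and it reversed without DMSO library 3. The replicate block gave 70 and 61 in MP38, 36 and 8 in 92.1, 31 and 17 for the difference and 24 and 47 between untreated lines. With it LINC01238 in 92.1 and LINC01844 and LINC01239 in MP38 lost their calls (edgeR adjusted p = 0.05003, 0.0629 and 0.0724). In 92.1 each library correlated best with its own number, a hint from the data and not from the design. For single RNAs, 2200 values kept their direction and side of the threshold, 78 lost and 30 gained the call, and 3 reversed; the cause was not tested. Low counts limit RNAs near 1 CPM most.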
